A study of Mus musculus with 43 samples.

Results

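The 8 heat shock chaperone genes Hspa1a, Hspa1b, Hspa8, Hsph1, Hsp90aa1, Dnajb1, Hspb1 and Bag3 were followed through the response of 9 mouse immune cell types to interferon alpha. They were chosen by name, as genes of the cytosolic heat shock response, out of 19752 genes with a probe set annotated to 1 gene symbol. The choice was made with earlier results of these data known, so the shares over all genes given below are descriptive. Of the 8 genes, 7 had a probe set of their own. Hspa8 and Hsp90aa1 had 3 each and Hspb1 had 2, of which the brightest over all arrays was used, and the others had 1. Hspa1b was covered only by a probe set that is annotated to both Hspa1a and Hspa1b. That shared probe set was kept as series 8 of the values, which raised the number of features tested to 19753, and it gives no level for Hspa1b alone.

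The study used Affymetrix whole-transcript arrays (Mouse Gene 1.0 ST) to profile sorted immune cells of C57BL/6 males at 6 weeks of age. Baseline mice carried no labelled treatment and no vehicle injection, and treated mice were taken 2 h after 10000 U of interferon alpha, an antiviral cytokine, given under the skin. The spleen gave dendritic cells (CD11c+ Flt3+), neutrophils (Ly6G+), NK cells, NKT cells and 4 kinds of T cell, namely CD4+, CD8+, gamma-delta and regulatory (CD4+ CD25+), and the peritoneal cavity gave macrophages (F4/80+). Each type had 3 baseline and 2 interferon arrays, except that neutrophils had 2 baseline arrays and macrophages 1 interferon array, so 26 baseline and 17 interferon arrays entered. The labels do not say whether arrays of a group came from separate mice, so p-values measure the spread between arrays, which may be technical.

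The labels describe the preparation of baseline replicates 1 and 2 as dissociation and staining, and that of baseline replicate 3 as dissociation and digestion. The digestion wording of replicate 3 is also on the interferon arrays of dendritic cells, neutrophils and 3 T cell types (CD8+, gamma-delta and regulatory), whereas NKT, NK and CD4+ T cell interferon arrays have a text that no baseline array has. For macrophages neither the interferon array nor baseline replicate 3 has any such text, and neutrophils have no replicate 3. Baseline replicate 3 is therefore set apart below. The preparation text of macrophage baseline arrays 1 and 2 names spleen, blood is given as the source for baseline arrays 1 and 2 of CD8+ T cells, and the baseline NKT arrays 1 and 2 list only NK1.1 as a surface marker. The mean level of each type's own marker list was at least 10.70 on all its arrays. The gamma-delta list reached 10.96 in NKT cells and the CD4+ T cell list 11.86 in regulatory T cells, so these lists do not separate those types. The mean level of 5 B cell markers ran from 8.11 to 10.49 on the gamma-delta T cell arrays and was 9.31 and 8.49 on the neutrophil baseline arrays. All 7 measured interferon check genes, Rsad2, Ifit1, Ifit3, Mx1, Irf7, Usp18 and Oasl1, rose at least 2-fold in all 9 types.

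Heat shock proteins bind unfolded or partly folded proteins and help them to fold, to stay soluble or to be degraded. HSP70 proteins such as those of Hspa1a, Hspa1b and Hspa8 work in cycles with J-domain proteins, which deliver clients and stimulate ATP hydrolysis, and with nucleotide exchange factors, which release them. Heat, oxidants and other protein-damaging stress activate the transcription factor HSF1, which binds inverted GAA repeats (heat shock elements) upstream of the inducible genes. In immune cells, tissue dissociation is a known inducer of Hspa1a and Hspa1b.

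Promoter windows are shown first. Their part in the changes described below was not tested. Start sites and windows for 6 of the 8 genes came from RefSeq on GRCm38.p6, and each window is the 250 bases before the start site, written 5′ to 3′ on the gene's strand. Capitals mark a pair of inverted heat shock repeats, GAANNTTC or TTCNNGAA, both of which read the same pattern on either strand.
Hspa1a: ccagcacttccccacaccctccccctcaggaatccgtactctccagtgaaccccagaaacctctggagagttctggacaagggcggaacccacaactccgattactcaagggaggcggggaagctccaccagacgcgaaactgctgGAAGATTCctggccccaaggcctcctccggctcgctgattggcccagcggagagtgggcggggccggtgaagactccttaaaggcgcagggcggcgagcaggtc
Hspa1b: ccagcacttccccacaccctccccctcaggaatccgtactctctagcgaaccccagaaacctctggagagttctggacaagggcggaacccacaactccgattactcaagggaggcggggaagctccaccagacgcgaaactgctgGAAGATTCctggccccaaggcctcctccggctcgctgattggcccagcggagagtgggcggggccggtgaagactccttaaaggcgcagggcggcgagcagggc
Hsph1: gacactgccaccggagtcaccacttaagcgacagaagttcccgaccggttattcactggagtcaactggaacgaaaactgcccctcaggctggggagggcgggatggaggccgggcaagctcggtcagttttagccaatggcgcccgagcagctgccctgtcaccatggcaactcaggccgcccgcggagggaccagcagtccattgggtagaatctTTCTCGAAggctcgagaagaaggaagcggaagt
Dnajb1: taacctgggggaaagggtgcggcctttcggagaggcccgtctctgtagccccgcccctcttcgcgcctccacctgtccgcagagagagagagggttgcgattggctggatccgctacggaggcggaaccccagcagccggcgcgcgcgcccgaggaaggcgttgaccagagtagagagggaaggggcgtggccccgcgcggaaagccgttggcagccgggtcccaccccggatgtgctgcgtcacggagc
Hspb1: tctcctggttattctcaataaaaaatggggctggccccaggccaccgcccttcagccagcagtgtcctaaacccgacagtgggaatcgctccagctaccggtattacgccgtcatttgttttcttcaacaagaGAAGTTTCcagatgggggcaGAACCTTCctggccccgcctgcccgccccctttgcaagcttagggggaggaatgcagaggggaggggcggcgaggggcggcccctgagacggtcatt
Bag3: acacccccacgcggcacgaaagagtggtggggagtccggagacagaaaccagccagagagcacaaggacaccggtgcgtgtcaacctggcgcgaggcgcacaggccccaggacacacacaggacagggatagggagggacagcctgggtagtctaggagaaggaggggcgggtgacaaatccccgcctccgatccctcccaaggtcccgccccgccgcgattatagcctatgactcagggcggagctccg
The Hspa1a window lies at chr17:34972157-34972406 on the minus strand and that of Hspa1b at chr17:34959239-34959488 on the minus strand. They differ at 3 of 250 positions, C44T, T47C and T249G, where position 1 is the 5′ end, the first base is that of Hspa1a and the second that of Hspa1b. The Hsph1 window is chr5:149636337-149636586 on the minus strand, and those of Dnajb1, Hspb1 and Bag3 are chr8:83607925-83608174, chr5:135887669-135887918 and chr7:128523333-128523582 on the plus strand. The start site used for Hsph1, 149636336, lies inside the annotated gene, whose 5′ end is at 149636498. The marked pair of Hsph1 therefore also lies inside that gene.

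Hspa1a and Hspa1b both hold GAAGATTC 104 bases before the start site, and the 3 differences lie outside it. Hsph1 holds TTCTCGAA 33 bases before the start site used for it, and Hspb1 holds GAAGTTTC 117 bases and GAACCTTC 97 bases before its own. No pair was found in the windows of Dnajb1 and Bag3. Of 32851 promoter windows of the same length, 12.8% hold at least 1 such pair and 1.46% hold at least 2. The core of an interferon-stimulated response element, written as GAAA, any 2 bases and GAAA again, was searched on both strands, was found in none of the 6 windows and is present in 2.98% of all windows. These are letter matches in a short window, and binding was not measured.

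The genes differ widely in level. Hspa8, the constitutive HSP70 protein of the cytosol, had a mean log2 intensity of 12.48 over all arrays, above 99.8% of genes, although intensities of different probe sets are only roughly comparable. Hsp90aa1, the inducible HSP90 protein that matures kinases and steroid receptors, stood at 10.20. The shared Hspa1a/Hspa1b probe set had a mean of 8.49, Dnajb1 8.38, Hsph1 7.70, Bag3 7.38, Hspa1a 7.33 and Hspb1 6.34. Hspb1, a small heat shock protein that holds unfolded proteins without ATP, thus lay below most genes.

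**Figure D1:**
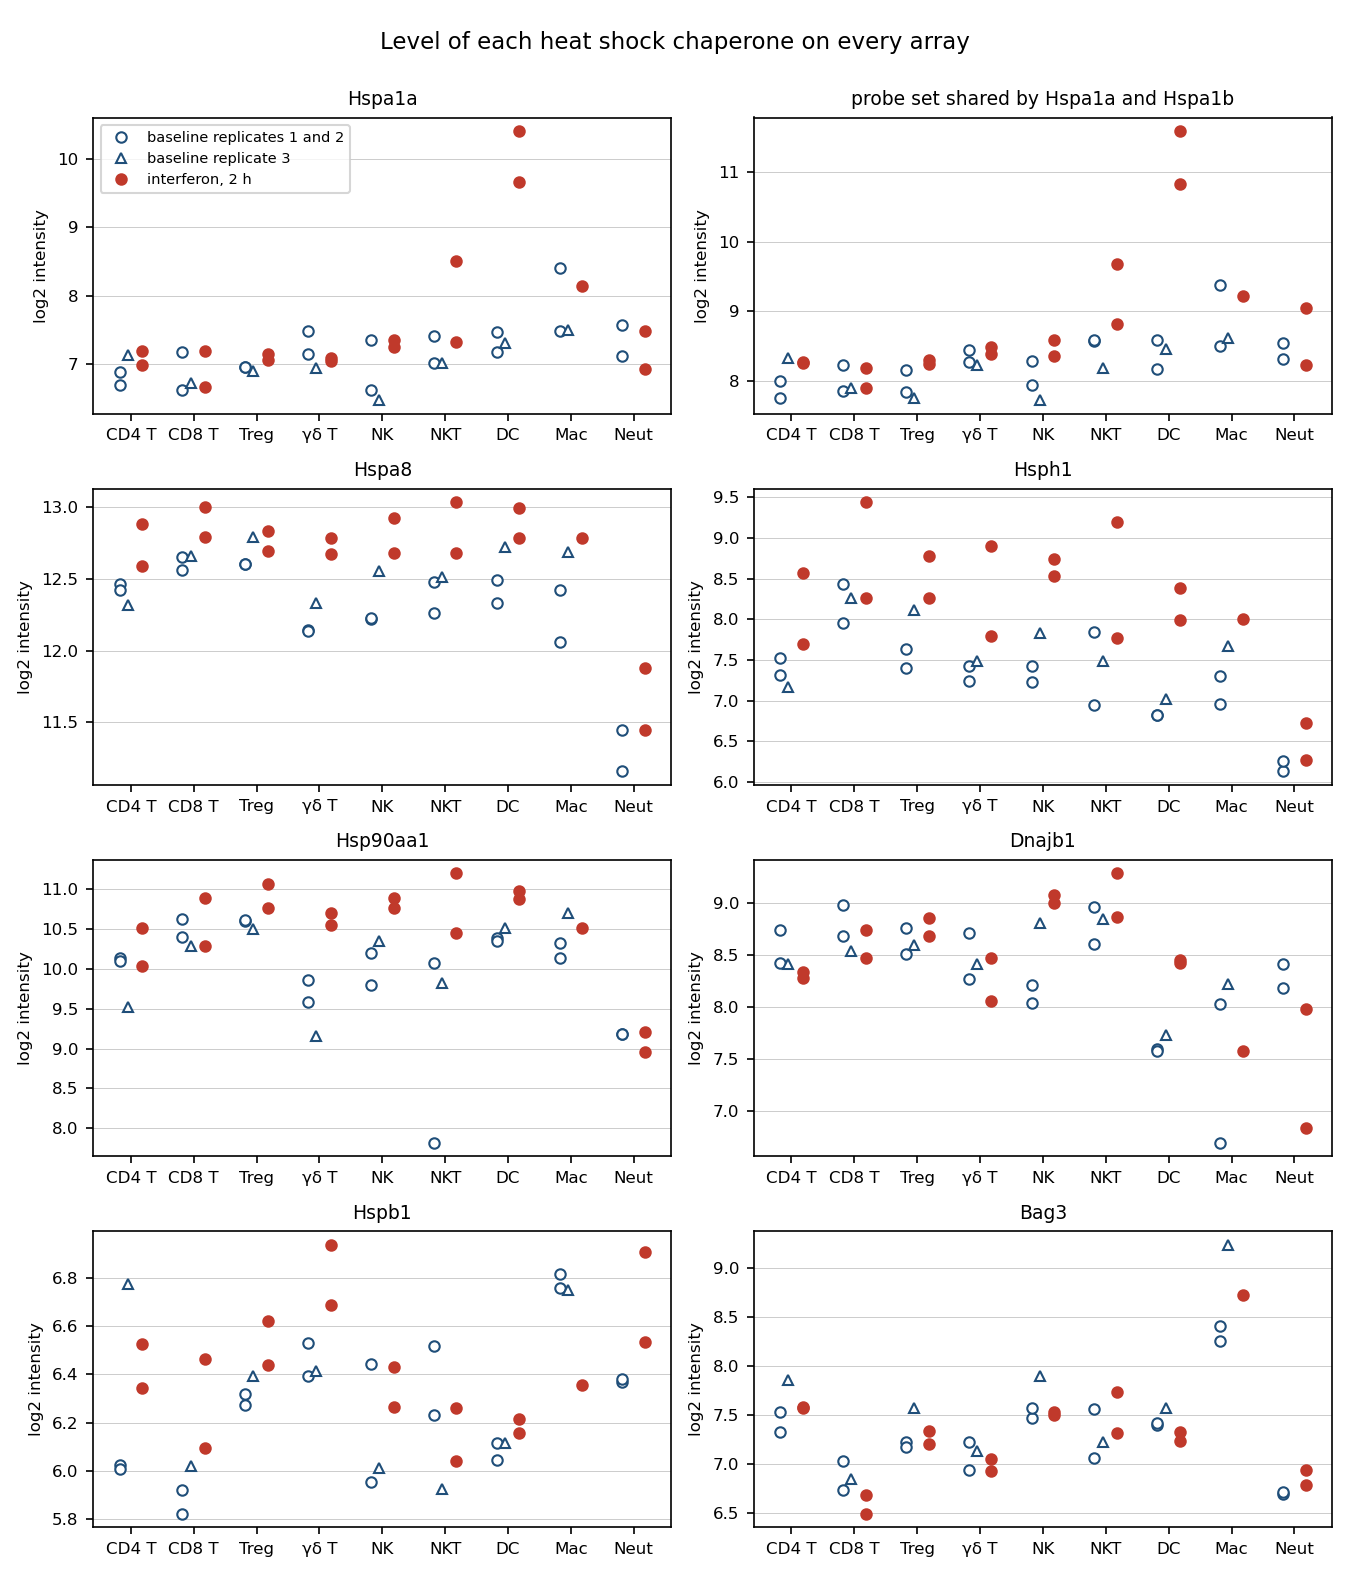
Log2 intensity (y axis) of each of the 8 probe sets on all 43 arrays, by cell type (x axis). Open circles are baseline replicates 1 and 2, open triangles baseline replicate 3 and filled circles interferon arrays. Hspa1a and the shared probe set are far above baseline in dendritic cells after interferon. Hsph1 and Hspa8 each have all interferon arrays above every baseline array in 7 of the 9 types. Upward separation of this kind occurred in 10.7% (gamma-delta T cells) to 29.6% (neutrophils) of all genes.

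The first question was which chaperones answered interferon in which cell type. Calls required a limma p below 0.05 after Benjamini-Hochberg adjustment over all features, together with a change of at least 2-fold, which is 1 log2 unit. Of 72 pairs of probe set and cell type, 4 were called raised and 0 lowered, against 1.65% raised and 0.659% lowered over all pairs of gene and cell type. Of the 4, 3 lay in dendritic cells, namely Hspa1a, the shared probe set and Hsph1, and 1 in NKT cells, Hsp90aa1. Of the 72 changes, 57 were above 0, and 18 positive and 1 negative change had an unadjusted limma p below 0.05. These counts were not taken over all genes, so no reference share stands beside them. Hspa1a and the shared probe set are both in them and are not independent.

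**Figure D2:**
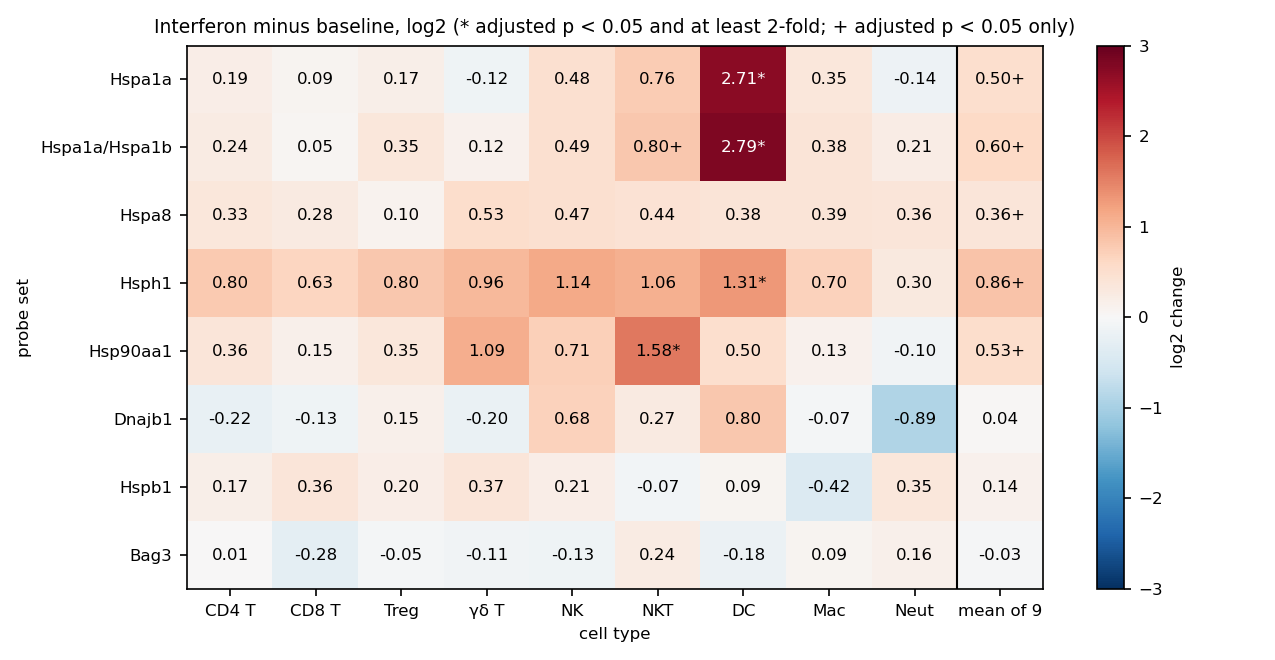
Interferon minus baseline (log2, colour and printed number) for each probe set (rows) in each cell type and on the mean of the 9 types (columns). A star marks a called change and a plus an adjusted p below 0.05 without a 2-fold change. The rise of Hspa1a and the shared probe set stands out in dendritic cells, and Hsph1 is above 0 in all 9 types.

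Hspa1a, the strictly inducible HSP70 gene, lay at 7.48, 7.18 and 7.32 log2 units on the 3 baseline arrays of dendritic cells. The 2 interferon arrays gave 10.41 and 9.66. All interferon values were thus more than 2 log2 units above every baseline value, and baseline replicate 3 lay between the others. The change was 2.71 (SE 0.292, 6.55-fold, adjusted p = 1.88e-08, limma), beside 2.35% of genes called raised in dendritic cells. The shared probe set gave 8.60, 8.18 and 8.47 at baseline and 11.58 and 10.83 after interferon. Its change of 2.79 (SE 0.257, 6.92-fold, adjusted p = 7.01e-10, limma) was close to that of Hspa1a, and over the 43 arrays the levels of the 2 probe sets had a correlation of 0.97. They share sequence, so they are not independent of each other.

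In the other 8 types Hspa1a changed little. Its log2 changes ran from -0.14 in neutrophils to 0.76 in NKT cells, and none passed the test. The shared probe set reached an adjusted p below 0.05 in NKT cells, at 0.80 (adjusted p = 0.0472, limma), short of 2-fold. The effect in dendritic cells exceeded the mean effect in the other 8 by 2.49 for Hspa1a (SE 0.311, adjusted p = 2.11e-06, limma) and by 2.46 for the shared probe set (SE 0.274, adjusted p = 3.05e-07, limma). For comparison, 0.901% of genes had an effect that was at least 2-fold higher in dendritic cells by this test. An F test for any difference among the 9 effects passed for the same 2 probe sets, with adjusted p of 0.000281 and 5.19e-05, and for none of the other 6, with 4.17% of all genes passing. Among the other 6 the adjusted p of this F test ran from 0.191 for Dnajb1 to 0.973 for Hspa8, which does not show that their effects were equal.

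The dendritic cell rise was also seen against other choices of baseline array. Baseline replicate 3 of dendritic cells is a lone array, taken to vary as the other groups do. A shared preparation wording does not show that the cells were handled alike, and the part of preparation was not tested. Against baseline replicate 3 alone, which shares its preparation wording with the interferon arrays, Hspa1a rose by 2.72 (adjusted p = 0.000118, limma) and the shared probe set by 2.74 (adjusted p = 1.43e-05, limma). With a preparation term, which marked baseline arrays other than replicate 3, Hspa1a rose by 2.83 and the shared probe set by 2.88. The term treated all interferon arrays like replicate 3, whatever their preparation text, so it did not adjust for each wording. Against replicate 3 alone the F test passed for 0 of the 8 probe sets, while the difference from the other types with a replicate 3 was 2.31 (adjusted p = 0.007, limma) and 2.28 (adjusted p = 0.00178, limma). The share of all genes that passed this F test against replicate 3 alone was not computed. No mock-injected mice were analysed here, so interferon and the injection itself cannot be told apart.

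Markers of other cells were examined on the dendritic cell arrays. The mean level of 7 macrophage markers was 8.07 to 8.30 at baseline and 7.91 and 8.15 after interferon, against at least 11.66 on macrophage arrays. The mean level of 5 B cell markers was 7.33 to 7.96 at baseline and 6.91 and 6.89 after interferon. The dendritic cell markers themselves stood at 11.13 to 11.18 and then at 11.06 and 10.95. Neither the macrophage nor the B cell list was higher on the interferon arrays than on all baseline arrays. The mean level of 6 neutrophil markers was 6.79 to 7.18 at baseline and 7.502 and 6.32 after interferon, with the higher value on the array that also had the higher Hspa1a, and the mean level of 5 regulatory T cell markers, Il2ra among them, was 7.15 to 7.29 at baseline and 7.87 and 8.02 after interferon. The part of these lists in the result was not tested.

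Immediate early genes, which respond within minutes to many stimuli and to handling, also moved. Of 21 measured, 6 were called raised in dendritic cells, beside 2.35% of all genes. They were Nr4a3 at 2.47, Atf3 at 2.42, Fos at 1.73, Nr4a2 at 1.71, Fosb at 1.39 and Klf6 at 1.23. Against baseline replicate 3 alone 3 of them were called, Nr4a3 at 2.33, Atf3 at 1.52 and Nr4a2 at 1.43. The share of all genes called in dendritic cells against replicate 3 alone was not computed. Immediate early genes were also called raised where Hspa1a was not. In NK cells these were 4 of the 21, led by Myc at 1.79 and Egr2 at 1.47, beside 1.25% of all genes. In NKT cells they were 3, Atf3 at 1.35, Myc at 1.26 and Nr4a2 at 1.015, beside 2.89% of all genes. Their part in the Hspa1a result was not tested. In bulk RNA a few cells with a large change and many cells with a small one cannot be told apart.

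**Figure D3:**
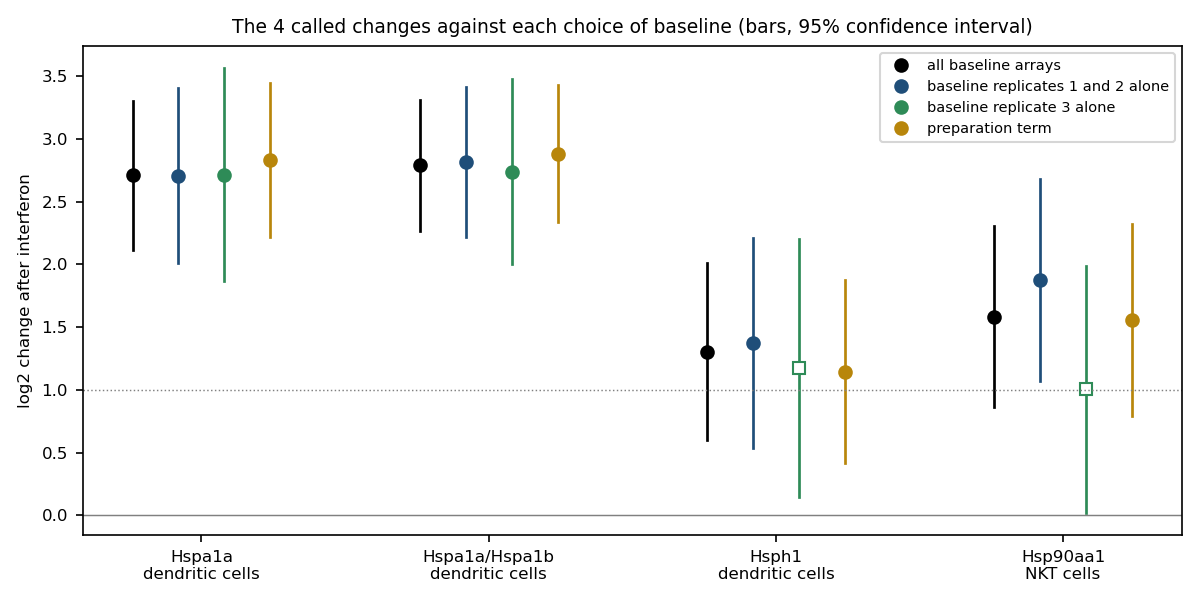
Log2 change after interferon (y axis) with its 95% confidence interval for the 4 called changes (x axis). Changes were computed against all baseline arrays, replicates 1 and 2 alone, replicate 3 alone, or with a preparation term marking baseline replicates 1 and 2. Filled circles are called and open squares are not. Hspa1a and the shared probe set stay between 2.71 and 2.88, while Hsph1 and Hsp90aa1 are not called against replicate 3 alone.

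Hsph1 encodes HSP110, a nucleotide exchange factor of HSP70 that also works in protein disaggregation, and its change was above 0 in all 9 types. In dendritic cells it lay at 6.82, 6.82 and 7.02 at baseline and at 7.997 and 8.39 after interferon. Hsph1 thus had no overlap there, as had 17% of all genes upward. The change was 1.31 (SE 0.347, adjusted p = 0.0141, limma). It was 1.17 (adjusted p = 0.39) against replicate 3 alone, 1.15 (adjusted p = 0.0493) with the preparation term and 1.11 (adjusted p = 0.287) without the second interferon array, so this call depends on those choices. Leaving out dendritic cell baseline array 1 or 2 gave 1.27 both times, with adjusted p of 0.0505 and 0.0518.

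In the other types the change of Hsph1 was 1.14 in NK cells (adjusted p = 0.0604), 1.06 in NKT cells (adjusted p = 0.054), 0.96 in gamma-delta T cells, 0.80 in CD4+ T cells, 0.80 in regulatory T cells, 0.70 in macrophages, 0.63 in CD8+ T cells and 0.30 in neutrophils. None of these passed the test in its own cell type, but other settings called some of them. In NK cells Hsph1 was called with each type fitted alone (adjusted p = 0.00444), with the replicate block (adjusted p = 0.00636), after quantile normalisation (adjusted p = 0.0432), with dim genes left out (adjusted p = 0.0475) and with array weights (adjusted p = 0.00216). The replicate block also called it in gamma-delta T cells and NKT cells, quantile normalisation in gamma-delta T cells and the filter on dim genes in NKT cells. Without the first interferon array it was 1.52 in gamma-delta T cells (adjusted p = 0.0255) and 1.77 in NKT cells (adjusted p = 0.00586), and without NKT baseline array 2 it was 1.27 (adjusted p = 0.0363). All interferon arrays lay above all baseline arrays in 7 of the 9 types, the exceptions being CD8+ T cells and NKT cells. Over all genes that separation occurred upward in 10.7% of genes in gamma-delta T cells and up to 29.6% in neutrophils. In NK cells the baseline values were 7.43, 7.23 and 7.84 and the interferon values 8.54 and 8.74. In CD8+ T cells they were 7.95, 8.44 and 8.27 against 8.26 and 9.44, where only the second interferon array stood above baseline.

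Averaged over the 9 types, Hsph1 rose by 0.86 (SE 0.121, 1.81-fold, adjusted p = 9.13e-07, limma). Of the 8 probe sets, 5 had a mean change with an adjusted p below 0.05, all upward, and 0 reached a 2-fold mean change. Over all genes 9.56% rose on the mean at that p alone and 1.26% rose at least 2-fold. The other 4 were the shared probe set at 0.60 (adjusted p = 2.06e-06), Hsp90aa1 at 0.53 (adjusted p = 0.00108), Hspa1a at 0.50 (adjusted p = 0.000225) and Hspa8 at 0.36 (adjusted p = 9.9e-06). The median of the 8 mean changes was 0.43, beside -0.01 over all genes.

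The mean of Hspa1a was carried by dendritic cells. Without them it was 0.22 (adjusted p = 0.152, limma) and did not pass, while the shared probe set was still raised at 0.33 (adjusted p = 0.00818). Hsph1 without dendritic cells rose by 0.80 (adjusted p = 2.94e-05), Hsp90aa1 by 0.53 (adjusted p = 0.00416) and Hspa8 by 0.36 (adjusted p = 6.06e-05). With the preparation term the same 5 means passed, at 0.63 for Hspa1a, 0.70 for the shared probe set, 0.69 for Hsph1, 0.50 for Hsp90aa1 and 0.23 for Hspa8. In that fit 4.88% of all genes rose on the mean. The term did not separate the preparation texts of the interferon arrays, so these means are not adjusted for them.

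Hspa8 moved little, and its change was above 0 in every type. In gamma-delta T cells its baseline values were 12.15, 12.14 and 12.33, and its interferon values 12.67 and 12.79. In NK cells they were 12.22, 12.23 and 12.55 against 12.68 and 12.93. In both types the groups did not overlap, and this held in 7 of the 9 types, the exceptions being regulatory T cells and neutrophils. In those 7 types the same upward separation occurred in 10.7% (gamma-delta T cells) to 17% (dendritic cells) of all genes. The single changes ran from 0.10 in regulatory T cells to 0.53 in gamma-delta T cells, and none passed the test, the lowest adjusted p being 0.0616 in gamma-delta T cells.

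Hsp90aa1 was called in NKT cells. Its baseline values were 7.82, 10.07 and 9.82, and its interferon values 10.45 and 11.19. The groups did not overlap, as upward for 12.4% of all genes there, but baseline array 1 lay more than 2 log2 units below the others. The change of 1.58 (SE 0.354, adjusted p = 0.00298, limma) came to 0.88 without that array (adjusted p = 0.0294), short of 2-fold, to 1.00 against replicate 3 alone (adjusted p = 0.45), and to 1.21 without the second interferon array (adjusted p = 0.128). In NKT cells 2.89% of genes were called raised. The effect in NKT cells minus that in the other 8 types was 1.19 (SE 0.378, adjusted p = 0.17, limma), so a difference between types was not established.

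NKT baseline array 1 also had the highest level of any array for the measured erythroid marker Alas2, 7.62, and the highest mean level of 5 dendritic cell markers among the arrays of other types, 8.01. NKT interferon array 1 had the highest mean level of 7 macrophage markers outside macrophages, 8.90, against 7.36 to 8.33 on the NKT baseline arrays and 8.06 on the other interferon array. On the same array Hspa1a stood at 8.51, against 7.02, 7.42 and 7.02 at baseline and 7.33 on the other interferon array. The Hspa1a change in NKT cells was 0.76 (adjusted p = 0.109) with both and 1.36 (adjusted p = 0.0108, limma), a call, without interferon array 2. The part of these markers in the NKT values was not tested.

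Hsp90aa1 was 1.09 higher in gamma-delta T cells, with baseline values of 9.58, 9.86 and 9.16 and interferon values of 10.55 and 10.69. The groups were well apart, yet the adjusted p was 0.0643. Other settings called this change: the replicate block (1.10, adjusted p = 0.0462, limma) and quantile normalisation (1.07, adjusted p = 0.0318, limma). Hsp90aa1 was also called there with dim genes left out (adjusted p = 0.0479, limma) and without baseline array 2 (1.25, adjusted p = 0.0472, limma). In NK cells it was 0.71 higher and in neutrophils -0.10. All interferon arrays were above all baseline arrays in 5 of the 9 types. In those 5 types this held for 10.7% (gamma-delta T cells) to 17.3% (regulatory T cells) of all genes.

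The 3 remaining genes showed no mean change that passed against all baseline arrays, although other settings gave some for Bag3 and Hspb1. Dnajb1, the J-domain protein of the cytosol that directs HSP70 and restrains HSF1, had a mean change of 0.04 (SE 0.101, adjusted p = 0.805, limma). It stood at 7.60, 7.58 and 7.73 in dendritic cells at baseline and at 8.42 and 8.45 after interferon, without overlap. Upward separation occurred in 17% of all genes there, and the change of Dnajb1 was 0.80 (adjusted p = 0.108, limma). In neutrophils it went from 8.18 and 8.41 to 6.84 and 7.98, a change of -0.89 (adjusted p = 0.0669). Here 1 interferon array was far below the other, and without the higher one the change was -1.46 (adjusted p = 0.00495). The B cell markers on the neutrophil arrays had a mean level of 9.31 and 8.49 at baseline and of 6.36 and 6.29 after interferon, and their part in the neutrophil values was not tested.

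Bag3, a cochaperone that links HSP70 to small heat shock proteins and to selective autophagy, had a mean change of -0.03 (SE 0.0707, adjusted p = 0.804, limma). In dendritic cells, where Hspa1a rose, Bag3 lay at 7.41, 7.42 and 7.57 at baseline and at 7.33 and 7.24 after interferon, so both interferon arrays were below every baseline array, as for 26.1% of all genes in these cells. That change of -0.18 did not pass (adjusted p = 0.864). Hspb1 had a mean change of 0.14 (adjusted p = 0.113). That mean passed after quantile normalisation (adjusted p = 0.0254), with array weights (adjusted p = 0.00042), without the macrophage interferon array (0.21, adjusted p = 0.0165) and without CD4+ T cell baseline array 3 (adjusted p = 0.0198). Its single changes ran from -0.42 in macrophages to 0.37 in gamma-delta T cells.

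The next question was whether baseline replicate 3, with its other preparation, differed in these genes. Over the 8 types that had one, 0 of the 8 probe sets was called against replicates 1 and 2, 2 had an unadjusted p below 0.05, and 0.0152% of all genes were called higher and 0% lower (limma). Hspa1a was -0.18 (SE 0.146, adjusted p = 0.596) and the shared probe set -0.14, and neither difference passed the test. Bag3 was 0.27 higher (SE 0.0714, adjusted p = 0.0581), Hsph1 0.24, Hspa8 0.19, Dnajb1 0.14, Hsp90aa1 0.04 and Hspb1 0.04.

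The largest Bag3 difference was in macrophages, with 8.25 and 8.41 on replicates 1 and 2 and 9.24 on replicate 3, but those replicates 1 and 2 carry the doubtful tissue wording. Hspb1 in CD4+ T cells was 6.02 and 6.01 on replicates 1 and 2 and 6.77 on replicate 3, a difference of 0.76 (adjusted p = 0.0388, limma) that is short of 2-fold. In this fit each lone replicate 3 array was taken to vary as much as the rest. Of the 7 interferon check genes, 3 were higher on replicate 3 at adjusted p below 0.05, with a median difference of 0.47.

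**Figure D4:**
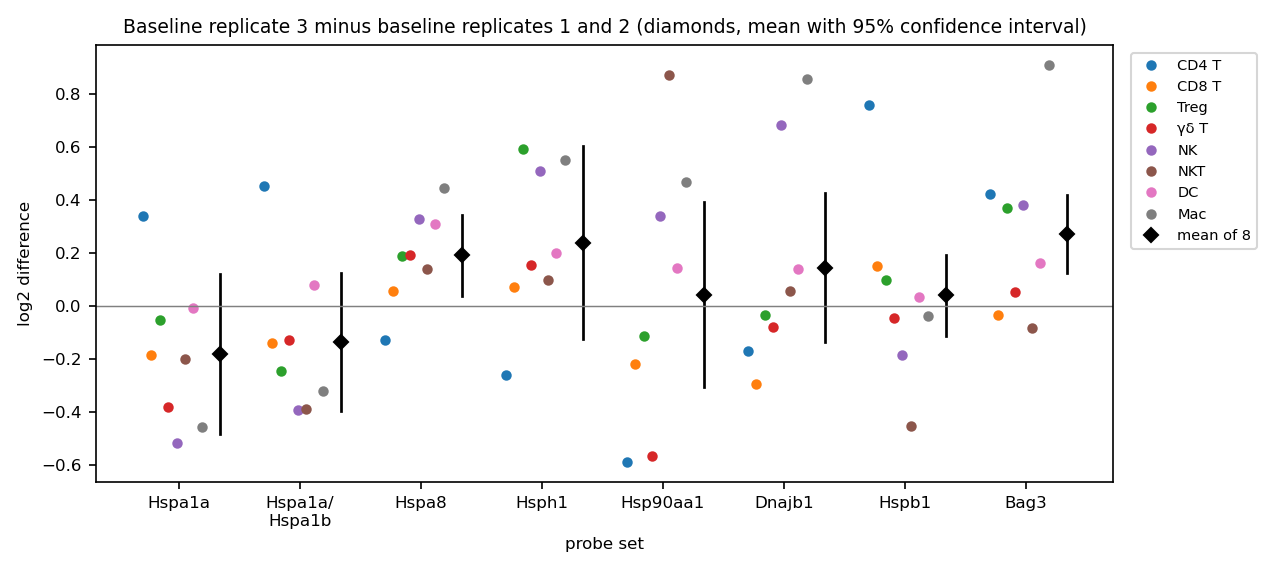
Baseline replicate 3 minus the mean of baseline replicates 1 and 2 (log2, y axis) for each probe set (x axis) in 8 cell types (coloured points), and the mean of the 8 with its 95% confidence interval (diamonds). Hspa1a lies at -0.18 and Bag3 at 0.27 on the mean, and 0 of the 8 means was called.

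Setting interferon against replicate 3 alone changed the sign of no mean that had passed. Over 8 types the mean changes were 0.77 for Hsph1, 0.74 for the shared probe set, 0.70 for Hspa1a, 0.58 for Hsp90aa1 and 0.24 for Hspa8, all with an adjusted p below 0.05, a threshold that 4.99% of genes passed upward. Bag3 came to -0.24 (adjusted p = 0.025) in this comparison, where it had been -0.03 against all baseline arrays. With the preparation term it was -0.22 (adjusted p = 0.0747).

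The 2 interferon arrays of a type, numbered 1 and 2 in the labels, also differed in these genes. Hspa8 and Hsp90aa1 were higher on array 2 in 8 of 8 types with both, as were 0.344% of all genes, and Hsph1 in 7 of 8, where 2.99% of all genes were higher in at least 7. The median difference was 0.70 for Hsph1, 0.28 for Hsp90aa1 and 0.23 for Hspa8. Hspa1a was higher on array 2 in 3 of 8 types. Across all genes the array differences of any 2 types had correlations from -0.33 to 0.26 with a median of 0.01, a spread around 0.

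Because of that, the means were recomputed with each number alone, a choice made after seeing the data. With array 1 only, Hsph1 rose by 0.56 (adjusted p = 0.000222), Hspa8 by 0.25 (adjusted p = 0.0127) and Hspa1a by 0.60 (adjusted p = 0.000318), while Hsp90aa1 at 0.38 did not pass (adjusted p = 0.108). With array 2 only, over 8 types, Hsph1 rose by 1.20 (adjusted p = 5.86e-09), Hsp90aa1 by 0.75, Hspa8 by 0.48 and Hspa1a by 0.41.

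At rest the genes differed among cell types. All 8 probe sets passed an F test over the 9 baseline groups (limma), as did 56.4% of all genes. Hsph1 had the widest range, a 4.07-fold span. It ran from 8.22 ± 0.25 (SD, n = 3) in CD8+ T cells to 6.19 ± 0.09 (SD, n = 2) in neutrophils. Of its 8 steps between neighbours in the order of means none passed.

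Bag3 was highest in macrophages at 8.64 ± 0.53 (SD, n = 3), followed by NK cells at 7.65 ± 0.23 (SD, n = 3). That step passed (adjusted p = 4.94e-05, limma). Then came CD4+ T cells at 7.57, dendritic cells at 7.47, regulatory T cells at 7.33, NKT cells at 7.29, gamma-delta T cells at 7.10, CD8+ T cells at 6.87 and neutrophils at 6.71, with no further step passing. Hspa8 ran from 12.67 in regulatory T cells to 12.20 in gamma-delta T cells with no step passing, and then dropped to 11.30 in neutrophils (adjusted p = 6.29e-05, limma). These were the 2 neighbour steps of all 64 that passed.

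Hsp90aa1 was lowest in neutrophils at 9.18 and highest in regulatory T cells at 10.57. Hspa1a was highest in macrophages at 7.80 and lowest in NK cells at 6.82, and the shared probe set highest in macrophages at 8.83 and lowest in regulatory T cells at 7.93. Dnajb1 was lowest in dendritic cells at 7.64, with macrophages at 7.65, and highest in NKT cells at 8.81. The macrophage mean of Dnajb1 joins values of 6.70, 8.03 and 8.22, of which the first is far below. Hspb1 spanned 1.81-fold, from 6.77 in macrophages to 5.92 in CD8+ T cells. Of the 36 pairs of types, 17 differed at adjusted p below 0.05 for Bag3, 14 for Hsp90aa1, 12 for Dnajb1, 9 for Hspa8 and Hsph1, 8 for Hspb1 and 4 for Hspa1a and for the shared probe set, beside 21.6% over all genes and pairs.

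Across the 43 arrays, once each cell type's mean was removed, Hspa8, Hsph1 and Hsp90aa1 varied together, with correlations of 0.84 for Hspa8 with Hsph1, 0.74 for Hsph1 with Hsp90aa1 and 0.67 for Hspa8 with Hsp90aa1. Hspa1a had 0.37 with Hsph1, 0.33 with Hspa8 and -0.09 with Bag3. With each group's mean removed instead, so that the treatment no longer enters, Hspa8 had 0.65 with Hsph1 and 0.69 with Dnajb1, and Hspa1a had -0.40 with Hsph1. The arrays share cell sorts and normalisation, and these values are descriptive.

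The genes most like Hspa1a after removal of the cell type mean were Armcx6 with a correlation of 0.85, Kdr and Met, receptor tyrosine kinase genes, with 0.84 each, Gpr33 with 0.83, Rilpl1, Apod and Ffar4 with 0.82, 0.82 and 0.81, and Cd40, a costimulatory receptor gene, with 0.81. Their changes in dendritic cells, such as 3.24 for Kdr and 2.73 for Gpr33, entered the correlation that chose them and are no separate result. With the group mean removed the closest genes were others, led by Gulp1 at 0.69 and Flt1 at 0.68. The gene closest to Hspa8 after removal of the cell type mean was Ahsa1, an activator of HSP90 ATPase, at 0.88, followed by Rnf19b, Ghitm, Cpne3 and Dtx3l at 0.87, 0.87, 0.87 and 0.86. With the group mean removed it was Wdr82 at 0.84.

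Other genes of protein folding were read from fixed lists. Of 27 J-domain proteins and cochaperones, 11 had a raised and 4 a lowered mean at adjusted p below 0.05, without a 2-fold change, beside 9.56% of all genes raised and 17.5% lowered. The raised ones were led by Chordc1 at 0.67, Ahsa1 at 0.62, Cacybp at 0.60 and Dnaja1 at 0.54. With the preparation term 2 were raised, Chordc1 at 0.60 and Dnaja1 at 0.49, and 2 lowered, Bag4 and Bag6, beside 4.88% and 12.7% of all genes. Calls in single types were Chordc1 at 1.58, Cacybp at 1.38 and Dnaja1 at 1.33 in NKT cells, beside 2.89% of all genes. These changes were not recomputed without NKT baseline array 1, which was low for Hsp90aa1. The others were Cacybp at 1.05 in gamma-delta T cells, beside 1.53% of all genes, and Dnaja2 at 1.17 in dendritic cells, beside 2.35%. The median change of this list was 0.37 in NKT cells, beside -0.10 over all genes.

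Of 8 measured HSP70, HSP110 and HSP90 relatives, 0 had a mean change that passed, and the one call was a fall of Hspa12a by 1.08 in macrophages, where 0.263% of all genes were called lowered. In dendritic cells 0 of these 8 was called and their median change was 0.03, beside -0.03 over all genes. The median of the 8 chaperone probe sets was 0.65. That set was chosen with earlier results known and holds both Hspa1a and the shared probe set, so the gap between the lists is descriptive. Of 13 chaperonins and mitochondrial chaperones, Cct3, a subunit of the cytosolic chaperonin, rose by 1.64 in dendritic cells, beside 2.35% of all genes called raised. In neutrophils Hspa9, the mitochondrial HSP70, fell by 1.49 and Cct6a fell by 1.28, beside 2.85% of all genes called lowered there and the fall of the B cell markers given above. Of 14 chaperones of the endoplasmic reticulum, Hspa5, the HSP70 protein of that compartment, was called in gamma-delta T cells. Its rise there was 1.28, beside 1.53% of all genes called raised. On the mean of the 9 types Hspa5 rose by 0.77 (adjusted p = 1.23e-09, limma), and by 0.77 with the preparation term. In all 3 of the 14 had a raised mean at adjusted p below 0.05 and 1 a lowered one, and the chaperonin list had 3 raised and 1 lowered of 13. Of 5 other stress-induced genes, Gadd45b was called, with a rise of 1.07 in regulatory T cells, where 1.11% of all genes were called raised. Of 9 other small heat shock proteins and 4 heat shock factors and regulators 0 was called in any type. Small heat shock protein means at adjusted p below 0.05 (limma) were Hspb3 at 0.17, Hspb6 at -0.27 and Hspb11 at -0.33. With the preparation term Hspb3 at 0.23 and Hspb6 at -0.38 passed, and Hspb11 at -0.07 did not. Over all genes 9.56% were raised and 17.5% lowered on the mean without that term.

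**Figure D5:**
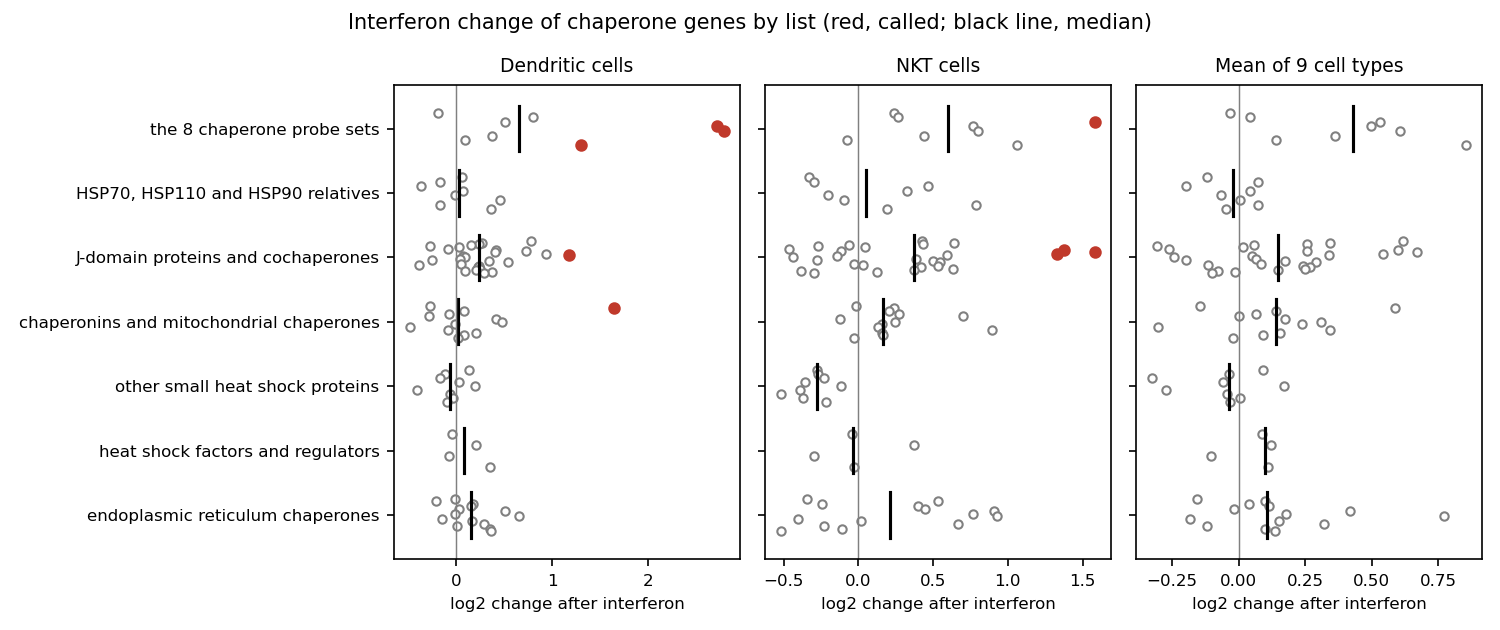
Log2 change after interferon (x axis) of each measured gene of 7 chaperone lists (rows) in dendritic cells, in NKT cells and on the mean of 9 types. Red points are called, open points are not, and black lines are list medians. In dendritic cells the 2 HSP70 probe sets lie at 2.71 and 2.79, and the medians of the other 6 lists lie between -0.07 and 0.24.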

How the data were processed

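The deposited files hold linear intensity values per probe set, made by the authors with Affymetrix Power Tools and RMA, per the submitters' processing notes. Neither versions nor a build were given in the sources used here. Intensities ran from 4.69 to 22042 with array medians between 105 and 125. The deposited intensities were log2-transformed here without further scaling. Precision is limited by how many arrays there are.

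The platform annotation gave 1 gene symbol for 21425 of 24922 probe sets, several for 1399 and none for 2098. The brightest probe set of a gene was used. All 43 arrays were fitted in 18 groups with limma 3.58.1 in R 4.3.3 (lmFit, eBayes), which left 25 degrees of freedom, and a lone array was taken to vary as the rest do. A second fit set baseline replicate 3 apart (17 degrees of freedom), and another had a preparation term (24). That term marked the baseline arrays other than replicate 3 and did not separate the preparation texts of the remaining arrays. All p-values are two-sided limma p-values, adjusted by Benjamini-Hochberg over 19753 features within a comparison. The procedure was tested on simulated data.

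The 8 genes and all lists were chosen with earlier results of these data known. Outside the 8, genes were named if a list gene was called in a cell type (at most 6 per list), or by the highest correlation with Hspa1a (8 genes) or Hspa8 (5 genes), and a few list genes were chosen after their values were seen. List genes without a probe set of 1 symbol, Hsp90ab1 and Hsf1 among them, were not analysed here. Promoter windows were not used for Hspa8 and Hsp90aa1. Same-numbered baseline and interferon arrays deviated together with correlations from -0.30 to 0.35, so the numbers were not treated as pairs.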

Additional observations from a re-analysis of the deposited data

Results flagged for a closer look

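The interferon effect on 2 of the 8 probe sets differed between dendritic cells and the other cell types by a test of the difference itself. For Hspa1a the effect in dendritic cells minus the mean effect in the other 8 types was 2.49 (95% confidence interval 1.86 to 3.12, adjusted p = 2.11e-06, limma). For the probe set shared by Hspa1a and Hspa1b it was 2.46 (95% confidence interval 1.90 to 3.02, adjusted p = 3.05e-07, limma). Both interferon arrays of dendritic cells showed it, and both probe sets read closely related transcripts.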

How the results depend on the processing

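Hspa1a and the shared probe set were called raised in dendritic cells under every alternative run. The 4 raised pairs became 2 against baseline replicate 3 alone, 7 after quantile normalisation, 7 with dim genes left out (12350 genes, without Hspb1), and 8 with interferon array 2 only, where 1 mean reached 2-fold. With array 1 only, 1 pair was called lowered, Dnajb1 in neutrophils. With replicate number as a fixed block 8 pairs were raised, and with a random replicate block 4, as without a block. The numbers do not pair arrays, as no shared litter, batch or day is labelled. With no minimum change 5 means passed, where 0 had reached 2-fold. The F test passed for 0 probe sets against replicate 3 alone and for 4 with array weights, instead of 2. The array weights came from an estimation that stopped before full convergence. With them Hsp90aa1 in NKT cells came to 0.81, and with each type fitted alone its adjusted p was 0.254. Leaving out 1 array at a time gave 3 to 7 raised pairs (7 without gamma-delta T cell interferon array 1), 0 to 1 lowered (1 without neutrophil interferon array 2), 0 means raised at least 2-fold, 2 to 3 F test calls, 0 calls for replicate 3, and 6 to 8 baseline F test calls, the 6 without macrophage baseline array 2. Bag3 on replicate 3 passed at adjusted p = 0.0207 with array weights, 0.0483 with dim genes left out and between 0.0262 and 0.0415 in 5 fits without 1 baseline array (macrophage 2, gamma-delta T cell 1, NKT 1, NKT 3 or CD8+ T cell 3). Of 1319 recomputed changes in single types, 64 that were not called had the other sign. The share of all genes called was not computed for each setting. The counts above therefore cannot tell a shift in these probe sets from a shift over all genes. The causes of these shifts were not tested. One or 2 interferon arrays per type limit what can be called in a single type.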
